A study of Mus musculus with 19 samples.

Results

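MicroRNA processing and uridylation genes were followed by their mRNA levels in mouse embryonic stem cells with and without Trim71 and Lin28a. The 9 genes were Drosha, Dgcr8, Xpo5, Dicer1, Tarbp2, Prkra, Zcchc11, Zcchc6 and Dis3l2. They were chosen by name for their roles in making, tailing and degrading microRNA precursors, and all 9 were found among the 21685 genes of the deposited table. All 9 passed the filter on low values, which kept 14988 genes for testing.

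The study compared 4 genotypes, named for Trim71 and then Lin28a. WT-WT cells carried floxed, intact alleles of both genes (Trimfl/fl and Lin28afl/fl, n = 4), and KO-WT cells had lost Trim71 only (Trim-/- and Lin28afl/fl, n = 4). WT-KO cells had lost Lin28a only (Trimfl/fl and Lin28a-/-, n = 5), and KO-KO cells had lost both (Trim-/- and Lin28a-/-, n = 5). All were male C57BL/6 embryonic stem cells grown in serum with leukaemia inhibitory factor and sorted for the surface antigen SSEA-1. Trim71 loss was induced with 500 nM 4-hydroxytamoxifen for 2 days, at least 7 days before harvest. The labels record no treatment of the Trim71-intact cells, so Trim71 loss and the recorded treatment cannot be told apart. Clones 1 and E3 supplied the Lin28a-intact cells and clones 1-4 and C1 the Lin28a-null cells, so Lin28a genotype and clone cannot be told apart. KO-WT replicate 5 was left out, since it held the average of the 4 remaining KO-WT libraries to within 1.5e-08. Libraries of a genotype came from different harvest days and from 2 clones, but the labels do not say that they came from separate cultures. P-values thus measure the spread between these 18 libraries, which may be partly technical and covers only 2 clones per Lin28a state.

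A microRNA is first cut from its primary transcript in the nucleus by the Microprocessor, made of the RNase III enzyme Drosha and the RNA-binding protein Dgcr8. Exportin-5, encoded by Xpo5, carries the precursor hairpin to the cytoplasm, where Dicer1 and its partners Tarbp2 and Prkra cut out the mature microRNA. In embryonic stem cells LIN28A binds the let-7 precursor and recruits the terminal uridylyltransferases TUT4 (Zcchc11) and TUT7 (Zcchc6), whose uridine tail marks the precursor for the exonuclease Dis3l2. TRIM71, an RNA-binding ubiquitin ligase, is itself a let-7 target.

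The let-7 sequences are shown because they are what this branch of the pathway acts on. Mature sequences come from RefSeq (GRCm38.p6), with the seed, bases 2 to 8, in capitals, and the family was taken as the 13 entries of that table with the seed GAGGUAG.

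let-7a-5p: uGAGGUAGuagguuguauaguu

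let-7g-5p: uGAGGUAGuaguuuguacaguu

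miR-98-5p: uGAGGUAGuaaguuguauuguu

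The hairpins of let-7g (chr9:106178840-106178927, plus strand) and of Mir98 (chrX:151913214-151913321, plus strand) follow in the same build. Capitals mark GGAG, the tetranucleotide known as a contact of LIN28.

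let-7g hairpin: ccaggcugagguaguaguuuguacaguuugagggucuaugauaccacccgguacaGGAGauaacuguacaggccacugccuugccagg

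Mir98 hairpin: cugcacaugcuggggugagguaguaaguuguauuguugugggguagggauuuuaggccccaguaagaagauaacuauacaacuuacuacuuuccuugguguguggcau

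GGAG was present in 10 of the 13 let-7 family hairpins and in 44.5% of all 1005 mouse hairpins of the table, searched on the hairpin strand only. A match is a description of the letters, and microRNA levels themselves were not analysed here.

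The complement of the let-7 seed, CTACCTC, was searched on the sense strand of the GENCODE M21 transcript with the longest coding sequence of each gene. Dicer1 held 4 copies in its coding sequence. They are given as 30-base windows with the match in capitals, because Dicer1 is the gene that fell with Trim71 loss in both Lin28a states. Whether let-7 acts at these matches, or has a part in that fall, was not tested.

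Dicer1, positions 2884 to 2890: cctactgtgttCTACCTCttaatgttgtta

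Dicer1, positions 3890 to 3896: tgtacaaccaaCTACCTCatatcccattca

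Dicer1, positions 3998 to 4004: cgctaacacatCTACCTCagatggaagccc

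Dicer1, positions 5370 to 5376: gcgattttggaCTACCTCataaccaagcac

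Positions count from 1 at the start of the transcript. At least 4 coding copies were found in 11 of 12681 tested genes (0.0867%), and in 5 of the 439 tested genes (1.14%) whose coding length was within 20% of that of Dicer1. Xpo5 held 2 coding copies and Zcchc11 held 1, against 14.9% of tested genes with at least 1. Tarbp2 held 1 copy in its 3′ UTR, where 9.33% of tested genes had at least 1. The other 5 genes held none in coding sequence or 3′ UTR.

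The targeted transcripts separated intact from deleted libraries as labelled. Trim71 ran from 10.04 to 10.996 in Trim71-intact libraries and from 8.77 to 9.55 in Trim71-null ones, and Lin28a from 9.74 to 10.26 where intact and from 8.21 to 8.57 where deleted. Each also moved with loss of the other gene: Trim71 rose by 0.45 with Lin28a loss where Trim71 was intact (limma adjusted p = 0.00431) and by 0.38 where it was deleted (limma adjusted p = 0.0111). Lin28a fell by 0.28 with Trim71 loss in Lin28a-intact cells (limma adjusted p = 0.0360), but the libraries overlapped and only 2 of 3 same-day pairs were lower. All values are the authors' normalised expression on a log2 scale, and read depth is unknown. All 10 embryonic stem cell markers were expressed, while Cdx2 and Elf5, defining trophectoderm genes, averaged 2.53 and 0.88. The summed level of the 5 trophectoderm markers, 3 of them tested, was 12.003 to 12.43 in WT-WT and 9.98 to 10.26 in WT-KO libraries. In KO-WT and KO-KO libraries that sum was 11.99 to 12.31 and 9.79 to 10.12. Krt8 and Krt18 ranged over 6.51 to 11.33 and 6.35 to 11.02. The summed stem cell markers were 15.26 to 15.32 in WT-WT, 15.34 to 15.45 in KO-WT, 15.57 to 15.75 in WT-KO and 15.70 to 15.78 in KO-KO libraries, so that every KO-WT library lay above every WT-WT library. The 5 primitive endoderm markers, 4 of them tested, also summed higher in WT-WT than in WT-KO (7.23 to 7.64 against 5.93 to 6.28). So did the 4 fibroblast markers in the table (6.98 to 7.19 against 6.28 to 6.40). The same lists were at 7.51 to 7.996 and 7.05 to 7.17 in KO-WT and at 6.09 to 6.62 and 6.32 to 6.53 in KO-KO. Their part in the comparisons of Trim71 and Lin28a states was not tested, and in bulk RNA fewer cells of a type and less RNA per cell cannot be told apart.

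Set against transcript length, the 9 mRNAs were not equally abundant. Per kilobase of transcript, on the log2 scale, mean levels over the 18 libraries were 8.45 for Drosha, 8.45 for Tarbp2, 8.36 for Xpo5, 7.08 for Dgcr8, 6.83 for Dicer1, 6.60 for Zcchc11, 6.23 for Prkra, 6.22 for Zcchc6 and 6.04 for Dis3l2. The nuclear enzyme, the export factor and a Dicer partner thus led, and the uridylyltransferases, Prkra and the exonuclease were lowest. Differences between genotypes were small: genotype means spanned from 0.08 log2 units for Tarbp2 to 0.37 for Dicer1.

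**Figure D1:**
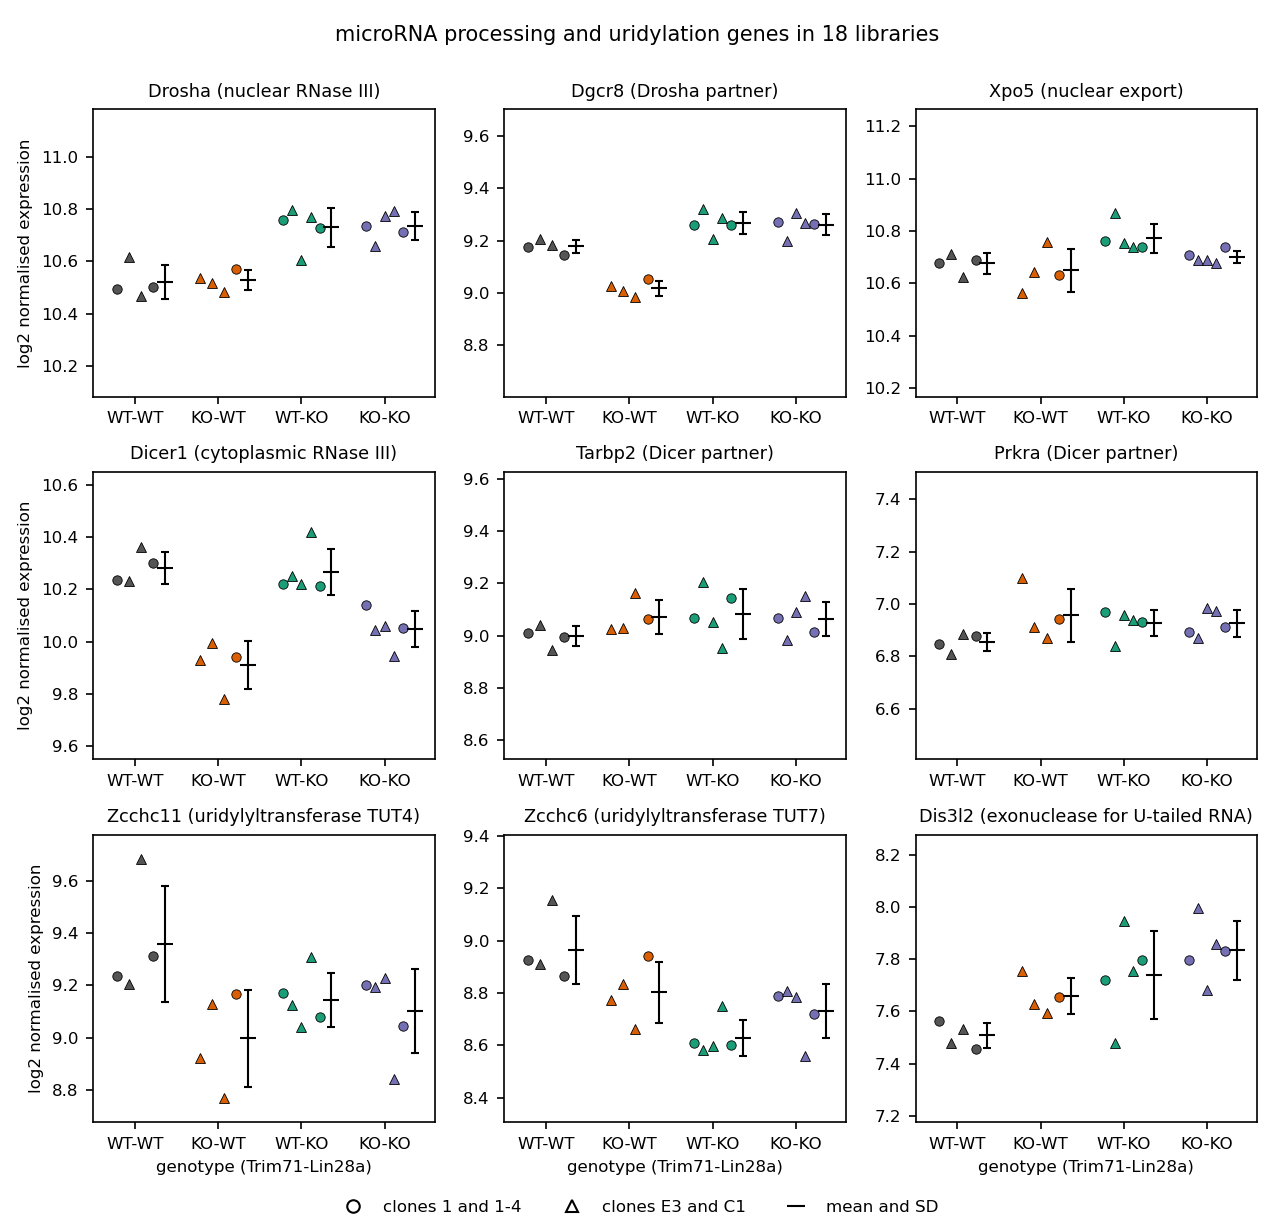
Log2 normalised expression (vertical axis) of the 9 genes in each of the 18 libraries, by genotype (horizontal axis, Trim71 state first); every panel spans the same number of log2 units, symbols give the clone pair, and the bar gives mean and SD. Dicer1 lies lower in KO-WT and KO-KO, Drosha higher in WT-KO and KO-KO, and the mean of Zcchc6 is highest in WT-WT.

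Loss of Trim71 was read in both Lin28a states, as KO-WT against WT-WT and as KO-KO against WT-KO. With Lin28a intact, 2 of the 9 genes were called by limma at a Benjamini-Hochberg adjusted p under 0.05, both lower, where 11.2% of all tested genes were called, 4.74% higher and 6.43% lower. Libraries of the genotypes did not overlap for 4 of the 9, against 28.2% of all tested genes. With Lin28a null, 1 of 9 was called, lower, against 8.38% of tested genes (4.26% higher and 4.12% lower), and 2 of 9 did not overlap against 12.6%.

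Dicer1, the cytoplasmic RNase III, was the gene that fell in both states. Its log2 levels were 10.23, 10.23, 10.36 and 10.30 in the WT-WT libraries and 9.93, 9.99, 9.78 and 9.94 in the KO-WT libraries. Every KO-WT library lay below every WT-WT library. The difference was -0.37 ± 0.0635 log2 units (SE, limma adjusted p = 0.00282). Dicer1 thus fell by 22.7%, and in 3 of 3 same-day pairs. Here and below, pair counts add nothing where libraries do not overlap, since every pair must then go the same way. With Lin28a null, levels were 10.22, 10.25, 10.22, 10.42 and 10.21 in WT-KO and 10.14, 10.04, 10.06, 9.95 and 10.05 in KO-KO. Again no library overlapped, so that Dicer1 was lower in 5 of 5 same-day pairs. This difference was -0.22 ± 0.0544 (limma adjusted p = 0.0217), so that Dicer1 fell by 14.0%. The difference missed the threshold when WT-KO replicate 4, KO-KO replicate 2 or KO-KO replicate 4 was left out, at -0.17, -0.22 and -0.18 with limma adjusted p = 0.0686, 0.0600 and 0.0595. Over all 32 alternatives the limma adjusted p of this value ran from 0.000696 to 0.261. The fall with Lin28a intact passed in 30 of 32 alternatives (limma adjusted p from 8.72e-05 to 0.136). It did not pass with only these genotypes in the fit (-0.39, limma adjusted p = 0.103) or in clones E3 and C1 alone (-0.40, limma adjusted p = 0.136). With Lin28a null, neither clone pair passed alone, at -0.28 in E3 and C1 (limma adjusted p = 0.143) and -0.12 in 1 and 1-4 (limma adjusted p = 0.261). The change between the Lin28a states, 0.15, did not pass (limma adjusted p = 0.390, 95% interval -0.02 to 0.33).

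Dgcr8, the Microprocessor's RNA-binding subunit, fell with Trim71 loss where Lin28a was intact. Its levels were 9.17, 9.21, 9.18 and 9.15 in WT-WT and 9.03, 9.01, 8.98 and 9.05 in KO-WT, with no overlap. The difference was -0.16 ± 0.0437 (limma adjusted p = 0.0298), and all 3 same-day pairs were lower. Dgcr8 was called in 19 of 32 alternatives. It did not pass without a variance trend (limma adjusted p = 0.0518) or with only these genotypes in the fit (limma adjusted p = 0.198). In clones E3 and C1 alone it was -0.19 and did not pass (limma adjusted p = 0.223). Leaving out a single library removed the call in 6 of 18 fits: WT-WT replicates 2, 3 and 4, KO-WT replicates 2 and 3, and WT-KO replicate 1, with limma adjusted p from 0.0506 to 0.101 among these and from 0.00175 to 0.436 over all 32 alternatives. With Lin28a null the levels were 9.26, 9.32, 9.21, 9.29 and 9.26 in WT-KO and 9.27, 9.20, 9.31, 9.27 and 9.26 in KO-KO, and these libraries overlapped. The interaction for Dgcr8, 0.15 (95% interval 0.03 to 0.28), had an unadjusted p of 0.0166 and a limma adjusted p of 0.262. After removal of GC and length trends it was 0.094 (limma adjusted p = 0.586, from 0.0485 to 0.817 over its alternatives).

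The uridylyltransferase Zcchc11 (TUT4) stood close to Dicer1 in size but varied more between libraries. Its levels were 9.23, 9.20, 9.68 and 9.31 in WT-WT and 8.92, 9.13, 8.77 and 9.17 in KO-WT. The libraries did not overlap, and WT-WT replicate 3 stood highest while KO-WT replicate 3 stood lowest, both harvested on day 4. Day differences had been removed, so deviations from the genotype means must cancel within a day. These opposite extremes are thus not independent of each other. The difference was -0.36 ± 0.121 and did not pass (limma adjusted p = 0.0629, from 0.0151 to 0.678 over the 32 alternatives). It passed without KO-WT replicate 4 or KO-KO replicate 4 (limma adjusted p = 0.0475 and 0.0400). On day 4 alone the same-day difference was -0.91, against -0.08 on day 3 and -0.14 on day 5. With the 4 libraries of day 4 left out, a choice made after the values were seen, the difference was -0.15 (limma adjusted p = 0.224). With Lin28a null the day 4 difference was -0.46, and the other days ran from -0.03 to 0.19.

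Day 4 also held the largest same-day falls of Dicer1, -0.58 with Lin28a intact and -0.47 with it null, while the other days ran from -0.36 to -0.24 and from -0.21 to -0.08. Without day 4 Dicer1 was still called in both states, at -0.29 (limma adjusted p = 0.00318) and -0.15 (limma adjusted p = 0.0236). Dgcr8 without day 4 was -0.15 and was not called (limma adjusted p = 0.114). Zcchc6 (TUT7), the second uridylyltransferase, differed by -0.49 on day 4 and by -0.08 and 0.08 on days 3 and 5 with Lin28a intact. With Lin28a null it differed by -0.19 on day 4 and by 0.12 to 0.23 on the other 4 days. Leaving out day 4 gave 0.18 for Zcchc6 with Lin28a null (limma adjusted p = 0.0275, from 0.0275 to 0.911 over the 32 alternatives), where all days together gave 0.10 (limma adjusted p = 0.407).

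Across all genes, differences also followed transcript base composition and length. For Trim71 loss with Lin28a intact, the Spearman correlation of the log2 difference with transcript GC content was 0.510 across 14805 genes, which are not independent replicates. With Lin28a null it was 0.0112. Same-day values with Lin28a intact were 0.627 on day 4, 0.329 on day 3 and 0.251 on day 5, and with Lin28a null the day 4 value was 0.378 against -0.296 to 0.0612 on the other days. Zcchc11 has a GC content of 41.2%, below the lower quartile of 46.0% over tested genes, and the 774 genes within 1 percentage point of it had a median difference of -0.15. With smooth trends in GC content and length removed from each library, Zcchc11 differed by -0.16 (limma adjusted p = 0.171) and Dgcr8 by -0.11 (limma adjusted p = 0.121). Dicer1, at 47.3% GC, differed by -0.24 (limma adjusted p = 0.00595) with Lin28a intact and by -0.25 (limma adjusted p = 0.000696) with Lin28a null. The 1516 genes within 1 percentage point of the Dicer1 GC content had medians of -0.041 and -0.0084. Transcript length also correlated with the difference, at -0.259 with Lin28a intact and 0.132 with Lin28a null. Dicer1, at 9851 nt, had the longest transcript of the 9 genes. GC content and length were removed together, and their separate shares were not tested.

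**Figure D2:**
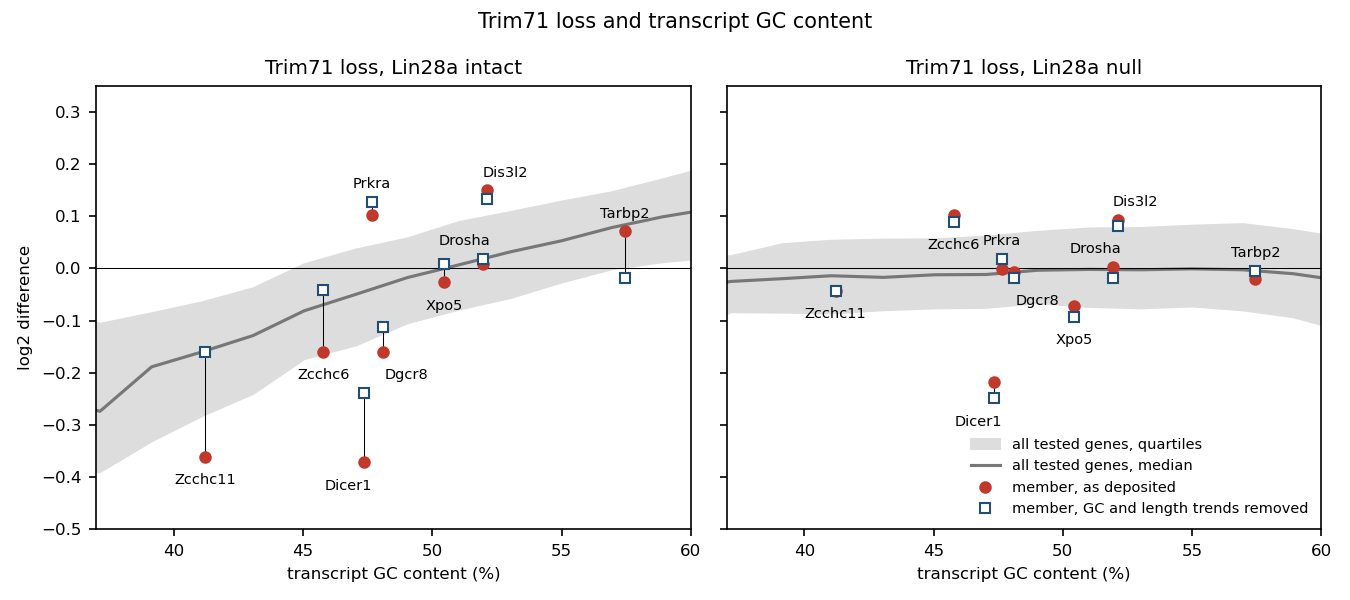
Log2 difference with Trim71 loss (vertical axis) against transcript GC content in percent (horizontal axis), with Lin28a intact (left) and null (right); the line and band give median and quartiles of all tested genes, red points the 9 genes as deposited and open squares the same genes after GC and length trends were removed. Zcchc11 moved from -0.36 to -0.16 on the left, while Dicer1 lay at -0.24 and -0.25 after removal.

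The remaining genes were not called for Trim71 loss in either state. Dis3l2, the exonuclease for uridylated RNA, ran from 7.46 to 7.56 in WT-WT and from 7.59 to 7.76 in KO-WT, which did not overlap, with a difference of 0.15 (limma adjusted p = 0.291). Xpo5 ran from 10.74 to 10.87 in WT-KO and from 10.68 to 10.74 in KO-KO, also without overlap at full precision, with a difference of -0.07 (limma adjusted p = 0.332). With Lin28a intact the 7 genes that were not called lay between -0.36 and 0.15, and with Lin28a null the 8 lay between -0.07 and 0.10. Their 95% intervals reached from -0.62 to 0.34 and from -0.26 to 0.26.

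**Figure D3:**
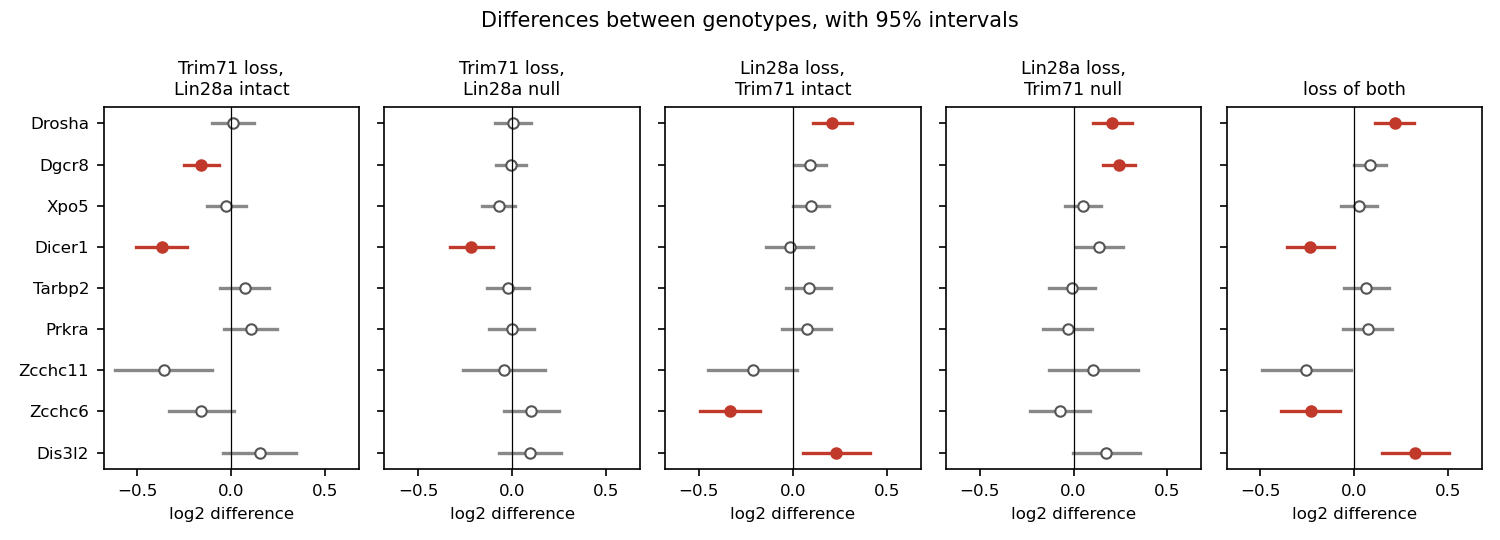
Log2 difference with its 95% interval (horizontal axis) for each of the 9 genes (rows) in the 5 comparisons between genotypes (panels); filled red points passed limma at an adjusted p under 0.05. Dicer1 is filled for both Trim71 comparisons and for loss of both genes, Drosha for the comparisons across Lin28a states.

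Loss of Lin28a was compared with Trim71 intact by setting WT-KO beside WT-WT, and with Trim71 null by setting KO-KO beside KO-WT. These comparisons reuse the libraries of the Trim71 comparisons. With Trim71 intact 3 of the 9 genes were called, 2 higher and 1 lower, where limma called 42.4% of all tested genes (20.3% higher and 22% lower). Libraries did not overlap for 3 of 9, against 40.8% of tested genes. With Trim71 null 2 of 9 were called, both higher, against 42.8% (20.8% higher and 22% lower), and 2 of 9 did not overlap against 40.7%. With 9 genes these counts lie near the background shares and are no result about the group, and genotype and clone cannot be told apart here. For 0 of the 9 genes did all Lin28a-null libraries lie on 1 side of all Lin28a-intact libraries, against 18.8% of tested genes.

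Drosha, the nuclear RNase III, was higher without Lin28a in both Trim71 states. Its levels were 10.49, 10.62, 10.47 and 10.50 in WT-WT, and 10.76, 10.80, 10.61, 10.77 and 10.73 in WT-KO. The sets overlapped only where WT-WT replicate 2 lay just above WT-KO replicate 3. The difference was 0.21 ± 0.0489 (limma adjusted p = 0.00256), a rise of 15.8%, higher in 3 of 4 same-day pairs. Drosha was at 10.54, 10.52, 10.48 and 10.57 in KO-WT and at 10.73, 10.66, 10.77, 10.79 and 10.71 in KO-KO. Here no library overlapped, and the difference was 0.21 ± 0.0489 (limma adjusted p = 0.00292), higher in 4 of 4 same-day pairs. Drosha missed the threshold in clones E3 and C1 alone with Trim71 intact (0.18, limma adjusted p = 0.178, from 0.000205 over the 32 alternatives) and in clones 1 and 1-4 alone with Trim71 null (0.14, limma adjusted p = 0.109, from 0.000252). The WT-WT and KO-WT levels of Drosha overlapped with each other, as did those of WT-KO and KO-KO.

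Dgcr8, Drosha's partner, rose without Lin28a where Trim71 was also absent, by 0.24 ± 0.0404 (limma adjusted p = 0.000171), with no overlap between KO-WT and KO-KO and 4 of 4 same-day pairs higher. It missed the threshold in clones 1 and 1-4 alone (0.21, limma adjusted p = 0.0616, from 2.02e-06 over the 32 alternatives). With Trim71 intact its difference was 0.09 ± 0.0404 and did not pass (limma adjusted p = 0.0841), although the libraries did not overlap. It passed in 4 of 32 alternatives: at 0.12 after GC and length removal (limma adjusted p = 0.0215), with 75th percentile scaling (0.0391), with no replicate block (0.0187) and without WT-KO replicate 3 (0.0436), in a range up to 0.533. KO-WT was the lowest of the 4 genotypes for Dgcr8, and WT-KO and KO-KO overlapped at the top. The difference between these effects is the interaction given above.

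Zcchc6 (TUT7) was the gene that fell with Lin28a loss. Its levels were 8.92, 8.91, 9.15 and 8.86 in WT-WT and 8.61, 8.58, 8.60, 8.75 and 8.60 in WT-KO, with every WT-KO library below every WT-WT library. The difference was -0.34 ± 0.0749 (limma adjusted p = 0.00197), and it was called in all 32 alternatives. Zcchc6 fell by 20.7%, and in 4 of 4 same-day pairs. With Trim71 null the levels were 8.77, 8.84, 8.66 and 8.94 in KO-WT and 8.79, 8.81, 8.78, 8.56 and 8.72 in KO-KO. These overlapped, and the difference of -0.07 did not pass (limma adjusted p = 0.462). After GC and length removal it was -0.13 and passed (limma adjusted p = 0.0422), the only 1 of 32 alternatives that called it, in a range up to 0.936. The interaction for Zcchc6 was 0.26 (95% interval 0.04 to 0.49), with an unadjusted p of 0.0249 and a limma adjusted p of 0.287. After GC and length removal it was 0.13 (limma adjusted p = 0.547, from 0.0906 to 0.880 over its alternatives). Across 14805 genes the interaction had a Spearman correlation of -0.507 with transcript GC content and 0.363 with transcript length.

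Dis3l2 rose with Lin28a loss where Trim71 was intact, by 0.23 ± 0.0843 (limma adjusted p = 0.0364). Its levels were 7.56, 7.48, 7.53 and 7.46 in WT-WT and 7.72, 7.48, 7.95, 7.75 and 7.80 in WT-KO. WT-KO replicate 2 lay among the WT-WT libraries and the other 4 lay above them. Leaving out a single library removed the call in 7 of 18 fits, namely WT-WT replicates 2, 3 and 4 and WT-KO replicates 1, 3, 4 and 5, with limma adjusted p from 0.0579 to 0.128 among these and from 0.00139 to 0.315 over the 32 alternatives. With Trim71 null Dis3l2 differed by 0.17 (limma adjusted p = 0.106) and was called in 4 of 32 alternatives (limma adjusted p from 0.0196 to 0.355), among them those without WT-KO replicate 2 and without KO-KO replicate 3.

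Between the Lin28a states Dicer1 differed by -0.017 with Trim71 intact (limma adjusted p = 0.834). With Trim71 null Dicer1 differed by 0.14 (limma adjusted p = 0.0700). It was called in 7 of 32 alternatives, among them those without KO-WT replicate 2, WT-KO replicate 4 or KO-KO replicate 4, and was 0.018 after GC and length removal (limma adjusted p = 0.760, from 0.0252 over the alternatives). Zcchc11 differed by -0.21 with Trim71 intact (limma adjusted p = 0.137). With only these genotypes in the fit it was called at -0.21 (limma adjusted p = 0.00644, in a range up to 0.619), and it was -0.094 after GC and length removal and -0.13 without day 4. Xpo5, Tarbp2 and Prkra were not called in either comparison. After GC and length removal Prkra was called with Trim71 intact, at 0.16 (limma adjusted p = 0.0306, in a range up to 0.727), and with no replicate block Xpo5 was, at 0.10 (limma adjusted p = 0.0325, in a range up to 0.338).

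KO-KO and WT-WT differ in both genes, in clone and in recorded treatment. Of the 9 genes, 4 were called, 2 higher and 2 lower, against 45.6% of all tested genes (21% higher and 24.6% lower), and 4 did not overlap against 44.5%. This comparison shares its libraries with those above. Dis3l2, at 7.80, 7.997, 7.68, 7.86 and 7.83 in KO-KO, lay above every WT-WT library and was higher by 0.32 ± 0.0843 (limma adjusted p = 0.00527), a rise of 25.2%. Drosha was higher by 0.21 (limma adjusted p = 0.00216). Dicer1 differed by -0.23 ± 0.0588 (limma adjusted p = 0.00417), and Zcchc6 differed by -0.23 ± 0.0749 (limma adjusted p = 0.0188). Zcchc6 was not called in 5 of the 32 alternatives, over which limma adjusted p ran from 0.00466 to 0.107. It missed without WT-WT replicate 3 or KO-KO replicate 4, both from day 4, at -0.15 and -0.17 (limma adjusted p = 0.107 and 0.0694). Without all of day 4 it was -0.12 (limma adjusted p = 0.0693). It also missed in each clone pair alone, at -0.32 in E3 and C1 (limma adjusted p = 0.0652) and -0.14 in 1 and 1-4. No gene of the 9 was called for the interaction of Trim71 and Lin28a, where limma called 0.02% of tested genes. Dgcr8 and Zcchc6 had an unadjusted limma p under 0.05. How many of all tested genes had one was not counted, so this is no result about the group.

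Some of the 9 mRNAs varied together over the 18 libraries, which share genotype, clone and day. Pearson's r was 0.817 for Drosha with Dgcr8, 0.740 for Dicer1 with Zcchc11 and 0.727 for Zcchc11 with Zcchc6, and -0.677 for Tarbp2 with Zcchc6. By the same measure, the tested gene most like each was Wtap for Dgcr8 (r = 0.972), Etv6 for Drosha (0.969), Mef2a for Zcchc6 (0.966), Ctnnal1 for Dicer1 (0.962) and Hid1 for Dis3l2 (0.940). These values are descriptions of 18 libraries.

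The rest of the pathway was read from 5 lists of 61 genes, of which 59 were tested. Among these, limma called 8 for Trim71 loss with Lin28a intact, 3 higher and 5 lower (13.6%, against 11.2% of all tested genes), and 1 with Lin28a null (1.69% against 8.38%). Lin28a itself was among the 5 lower. The gene called with Lin28a null was Zc3h12a, an RNase that cuts precursor hairpins in their loops, which rose by 0.52 ± 0.0875 with Lin28a intact (limma adjusted p = 0.00275) and by 0.79 ± 0.0750 with Lin28a null (limma adjusted p = 1.09e-05). In the Ran cycle that powers nuclear export, Ranbp2, a nuclear pore protein, differed by -0.66 and Rangap1, the activator of Ran's GTPase, by 0.17 with Lin28a intact. Among exonucleases Xrn1, which degrades RNA from its 5′ end, differed by -0.37 and Pnpt1 by -0.25, also with Lin28a intact. With Lin28a null Ranbp2 differed by 0.031, Rangap1 by 0.077, Xrn1 by -0.046 and Pnpt1 by -0.024, and none was called. Ranbp2 also differed by -0.66 for Lin28a loss with Trim71 intact. The part of day 4 and of GC content was not tested for these genes. No terminal nucleotidyltransferase of the 8 tested beyond Zcchc11 and Zcchc6 was called for Trim71 loss in either Lin28a state, and their median differences were -0.088 and -0.035 against -0.0046 and -0.0093 over all tested genes.

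For Lin28a loss 23 of the 59 were called with Trim71 intact, 13 higher and 10 lower (39%, against 42.4% of all tested genes), and 26 with Trim71 null, 16 higher and 10 lower (44.1% against 42.8%). Lin28a itself is among the lower genes. Of the 17 Microprocessor cofactors, 4 were called higher and 2 lower in each comparison (35.3%, against 42.4% and 42.8% of all tested genes). Khsrp, an RNA-binding protein that favours processing of let-7, rose by 0.27 and 0.17, and Tardbp differed by -0.34 and -0.19. The editing enzyme Adar rose by 0.39 and 0.40. Tut1, the uridylyltransferase of U6 RNA, rose by 0.38 and 0.33. Usb1, which trims the end of U6 RNA, differed by -0.21 and -0.31, and Dis3l, the cytoplasmic exosome nuclease, rose by 0.22 and 0.33. For loss of both genes 26 of the 59 were called (44.1%, against 45.6%), and none for the interaction.

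**Figure D4:**
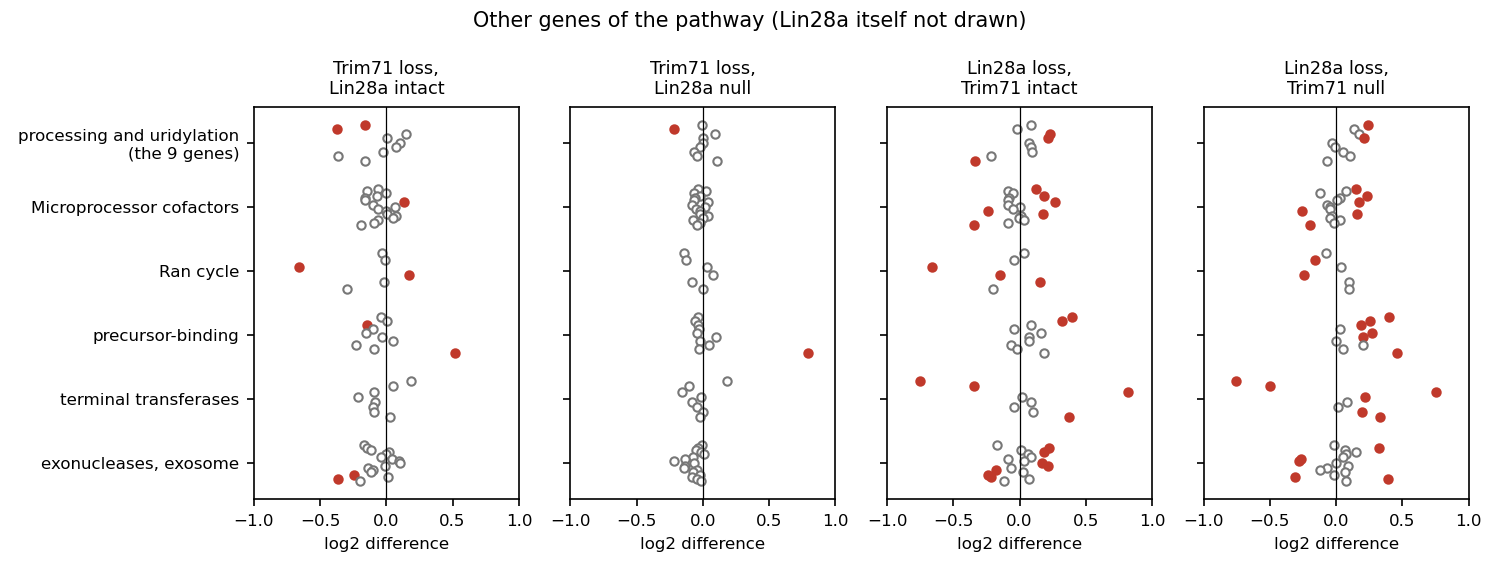
Log2 differences (horizontal axis) of the 9 genes and of the tested genes of the 5 other pathway lists (rows), in 4 comparisons (panels); each point is a gene, filled red where limma called it, and Lin28a itself is not drawn. With Trim71 loss in Lin28a-null cells the red points are Dicer1 and Zc3h12a.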

How the data were processed

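The authors' deposited table holds mRNA expression scores, normalised and on a log2 scale. Per the submitters' processing notes, CASAVA 1.8, STAR and DESeq2 were used, with no role or order given. The build and annotation are not given in the sources used here, and read depth is unknown. Base 2 was inferred from the values: 2 to each value summed to between 7297919 and 7677445 per library. Day differences had already been removed, since the largest day term was 1.7e-08, so day stayed in the fit as a replicate block (10 residual degrees of freedom).

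Testing was limited to genes that reached log2 of 10 in 4 or more libraries. It used limma 3.58.1 in R 4.3.3 (eBayes with trend), with Benjamini-Hochberg adjustment over all 14988. Libraries are paired by the harvest day in the labels; a check of that pairing by correlation is void once day is removed. On simulated data for Trim71 loss with Lin28a intact, 200 of 14988 genes were changed: 33% were recovered at 0.3 log2 units with 5.71% of calls false, and 99.5% at 1 log2 unit with 4.31% false.

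GC content and length came from GENCODE M21 transcripts, with 98.8% of tested genes matched. All 9 genes and up to 2 higher and 2 lower called genes per list and comparison, with a mean of at least log2 of 50, could be named. The genes and lists were chosen with earlier results of these data known.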

Additional observations from a re-analysis of the deposited data

Results flagged for a closer look

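In 4 of 36 gene and genotype groups 1 library stood apart from the rest by Dixon's criterion. Chance flags about 1 in 20 groups where values are independent. Here the removal of day differences ties libraries of a day together, so that rate is no measure for these groups. The share flagged over all tested genes was not counted. All 4 flagged groups were in WT-KO. Replicate 2 was high for Xpo5, at 10.87 against 10.76 for the nearest library, and low for Prkra, at 6.84 against 6.93. Replicate 4, from day 4, was high for Dicer1, at 10.42 against 10.25, and for Zcchc6, at 8.75 against 8.61. Without WT-KO replicate 4, Dicer1 differed by -0.17 for Trim71 loss with Lin28a null and was no longer called (limma adjusted p = 0.0686, in a range from 0.000696 to 0.261 over its alternatives).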

How the results depend on the processing

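Counts of the 9 genes called by limma were recomputed under 32 alternatives. Leaving out 1 library gave 1 to 3 for Trim71 loss with Lin28a intact, 0 to 1 with Lin28a null, 2 to 3 for Lin28a loss in either Trim71 state, 3 to 5 for loss of both and 0 for the interaction. With no replicate block (days not paired), the counts were 5 and 4 for Lin28a loss with Trim71 intact and null and 1 for the interaction. That fit was simulated for Trim71 loss with Lin28a intact only, where 37.7% of its calls were false at 0.3 log2 units. For Trim71 loss with Lin28a intact, the count was 1 without a variance trend, 0 with only the genotypes compared, 1 after GC and length removal with the replicate block kept, 1 on the 3 days with all genotypes and 1 without day 4. GC and length removal gave 5 and 3 for Lin28a loss with Trim71 intact and null and 6 for loss of both. Trim71 loss with Lin28a null gave 0 on the 3 days and 2 without day 4; both sets of days were chosen after the data were seen. In clones E3 and C1 alone, counts were 0 and 0 for Trim71 loss, 1 for Lin28a loss with Trim71 intact and 0 for loss of both. In clones 1 and 1-4 alone, which hold 1 KO-WT library, they were 1 and 0 for Trim71 loss and 0 for Lin28a loss with Trim71 null.

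Changes of sign were seen for Zcchc6 with Trim71 loss and Lin28a intact, at 0.071 in clones 1 and 1-4 (limma adjusted p = 0.643), and for the interaction of Dicer1, at -0.010 after GC and length removal (limma adjusted p = 0.975). A further 29 gene and comparison pairs had an unadjusted limma p of at least 0.1, at values from -0.10 to 0.15. Of their 923 refits 76 changed sign, and none of these was called, while 4 refits with the sign kept were called. These were Prkra for Lin28a loss with Trim71 intact (0.16) and for loss of both (0.17) and Zcchc6 for Lin28a loss with Trim71 null (-0.13), all after GC and length removal, and Zcchc6 for Trim71 loss with Lin28a null without day 4 (0.18). Except where a sentence above gives it, the cause of a change was not tested; fewer libraries entered the fits by clone and day. Read depth is unknown, so its limit on small differences cannot be given.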
